A study of Mus musculus with 12 samples.

Results

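Baseline ribosome occupancy was described in control hearts of mouse embryos at embryonic day 10.5, the stage of the looped tubular heart. Control embryos were female with 2 floxed Ddx3x alleles (Ddx3x fl/fl, WT in the sample titles), so the floxed alleles are part of the baseline described here. Each of 3 control pools held 20 hearts and gave 1 library of ribosome-protected fragments (footprints, RPF) and 1 RNA-Seq library, so 6 of the 12 libraries of the series were used. The hearts of cardiomyocyte Ddx3x knockout embryos were not used. Pools were whole hearts, so footprints and RNA of all cell types in a pool were read together. For footprints, 7.1 to 9.0 µg of RNA was digested with RNase I, and for RNA-Seq 0.75 µg was fragmented by heat. Of 21783 genes in the deposited table, 17965 had values in all 3 control pools, and 17587 of these passed the filter on low counts and were tested. The other 3818 genes were blank in at least 1 pool. Footprint libraries held 9.36, 7.31 and 11.4 M counts in pools 1 to 3, against 14.7, 18 and 19.9 M counts in the RNA libraries.

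A ribosome shields a short stretch of the mRNA on which it sits, and this stretch survives RNase treatment. Counting such stretches and dividing by the RNA level of the same gene gives a relative measure of how densely its transcripts are loaded with ribosomes. Loading depends on how often ribosomes initiate at the start codon and on how long they take to elongate, and upstream start codons or bound proteins in the 5′ untranslated region (UTR) can lower it. Long non-coding RNAs are loaded little or not at all, and nuclear RNAs are out of reach of cytoplasmic ribosomes. The 13 proteins that mitochondrial DNA encodes are made by separate ribosomes inside the mitochondrion.

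The start codons of 6 protein-coding genes with high or low ratios are printed here because a purine 3 bases before the start codon and a G right after it favour initiation in mammals. Each is the GENCODE vM39 start site read from GRCm39 (mm39), the 10 bases before the start codon and the 10 from its first base, 5′ to 3′ on the strand of the gene, and capitals mark the base at position −3, the start codon and the base at +4. The first 3 belong to genes with a high ratio, and the last 3 to genes with a low one.
Psmb4 (chr3:94794210-94794229, minus strand): ggtgactAagATGGaagcgt
Hsp90b1 (chr10:86541210-86541229, minus strand): gccacgcAccATGAgggtcc
Hspa5 (chr2:34662324-34662343, plus strand): cagcgccGgcATGAtgaagt
Tead1 (chr7:112358680-112358699, plus strand): tgccgaaAacATGGaaagga
Erbb4 (chr1:69146906-69146925, minus strand): cttgccaAaaATGAagctgg
Nkx2-5 (chr17:27060320-27060339, minus strand): cgtcgccAccATGTtcccca
All 6 carried a purine at −3, as did 86.9% of the 14547 tested coding genes with a readable start site, and 52.3% of those carried a G at +4. The median log2 ratio was 0.19 for the 6571 genes with both, 0.17 for the 6065 with the purine alone, 0.03 for the 1039 with the G alone and −0.05 for the 872 with neither. Genes with a purine at −3 thus stood slightly above the others, and start sites with it were found at both ends of the range.

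Levels are counts scaled to a common library size (CPM) after TMM scaling over the 6 libraries, and the ratio is the log2 of footprint over RNA with the pool as a block. The scaling sets the typical gene near 0, so a ratio is relative to other genes and not a number of ribosomes per mRNA. A gene was called higher or lower at an adjusted p under 0.05 and a log2 ratio of at least 1 in size (edgeR quasi-likelihood test, Benjamini-Hochberg adjustment over all 17587 genes). Footprint and RNA levels rose together across genes. Spearman's rho of the means over 3 pools was 0.908 over all tested genes and 0.888 over 14861 coding genes, given as a description since both axes share gene length and the same pools. Around this trend the ratio ran from a log2 of −1.47 at the 10th percentile to 1.36 at the 90th, a 7.09-fold span, with a median of 0.08. The ratio was higher in footprints for 2952 genes (16.8%) and lower for 2965 (16.9%), and 5890 of these 5917 genes had the same sign in every pool. An adjusted p under 0.05 alone was reached by 66.4% of genes in either direction, many of them with small differences. The footprint and RNA values of the 3 pools did not overlap for 65.3% of all tested genes. A lack of overlap, given below for single genes, therefore does not set a gene apart. The median SD of the log2 ratio over the 3 pools was 0.206, well below the call threshold. Ratios of pools 1 and 2, 1 and 3, and 2 and 3 ranked genes alike, with rho from 0.841 to 0.894 over all genes and from 0.971 to 0.977 over the 11105 genes with a mean of at least 100 counts. With scaling by library totals alone, the median of all genes moved by −0.60 and the calls to 1117 higher and 5660 lower, so gene groups are read here against the median of all genes. The sources used here do not say whether whole transcripts or coding sequences were counted. One alternative, called coding-scaled RNA below, therefore took RNA counts as counts over whole transcripts, multiplied them by the coding share of the transcript, and recentred the ratios on the median of coding genes. It gave 3392 higher and 2222 lower of 14861 coding genes, and of these 1831 and 1267 were also called as counted.

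**Figure D1:**
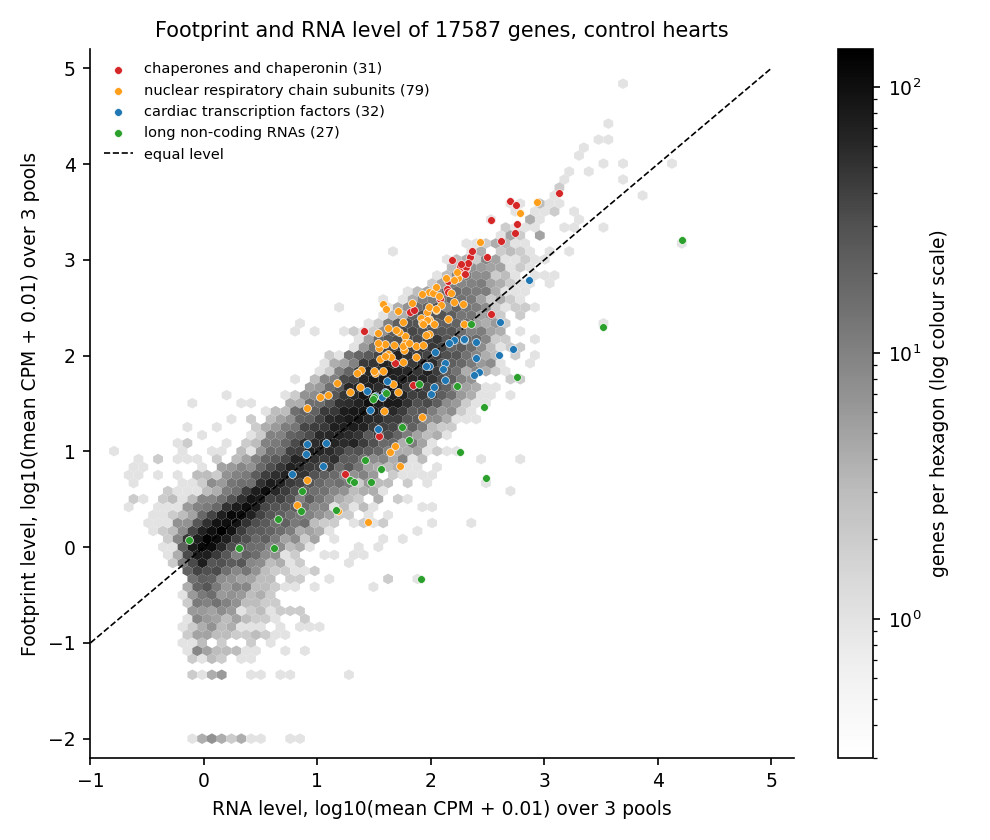
Footprint level against RNA level of the 17587 tested genes of control hearts, each axis the log10 of the mean CPM over 3 pools plus 0.01. Shading counts genes per hexagon, coloured points mark 31 chaperone, 79 respiratory chain, 32 cardiac transcription factor and 27 long non-coding RNA genes, and the dashed line marks equal levels. Chaperone and respiratory chain genes lie mostly above the line, and long non-coding RNAs mostly below it.

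Coding genes had more higher calls than long non-coding ones. Of 14861 coding genes 2853 were higher and 2068 lower, with a median log2 ratio of 0.15. Of 2636 genes annotated as long non-coding RNAs, 95 were higher and 876 lower, with a median of −0.39. Of the genes called lower, 1029 passed the count filter only through their RNA, and these had to be low. Of these, 321 were coding and 689 long non-coding, so 689 of the 876 lower calls of long non-coding RNAs were of this kind. Among genes that passed in both assays, 2779 (21.03%) of 13217 coding genes were higher and 1747 (13.2%) lower, with a median of 0.20, and 51 (6.24%) of 817 long non-coding genes were higher and 187 (22.9%) lower, with a median of 0.10. Among the gene lists, chaperones had the highest median (2.05) of the lists of molecular machines, followed by proteasome subunits, aminoacyl-tRNA synthetases, secreted matrix, DNA replication and the respiratory chain. Long non-coding RNAs (−1.93), homeobox genes (−0.80), small nucleolar RNA host genes (−0.74), ribosomal proteins (−0.68) and stress genes with upstream open reading frames (−0.63) had the lowest. The place of the host genes depended on the filter. With the filter in both assays their median lay −0.37 from that of all genes, where calcium handling genes lay lower (−0.69).

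**Figure D2:**
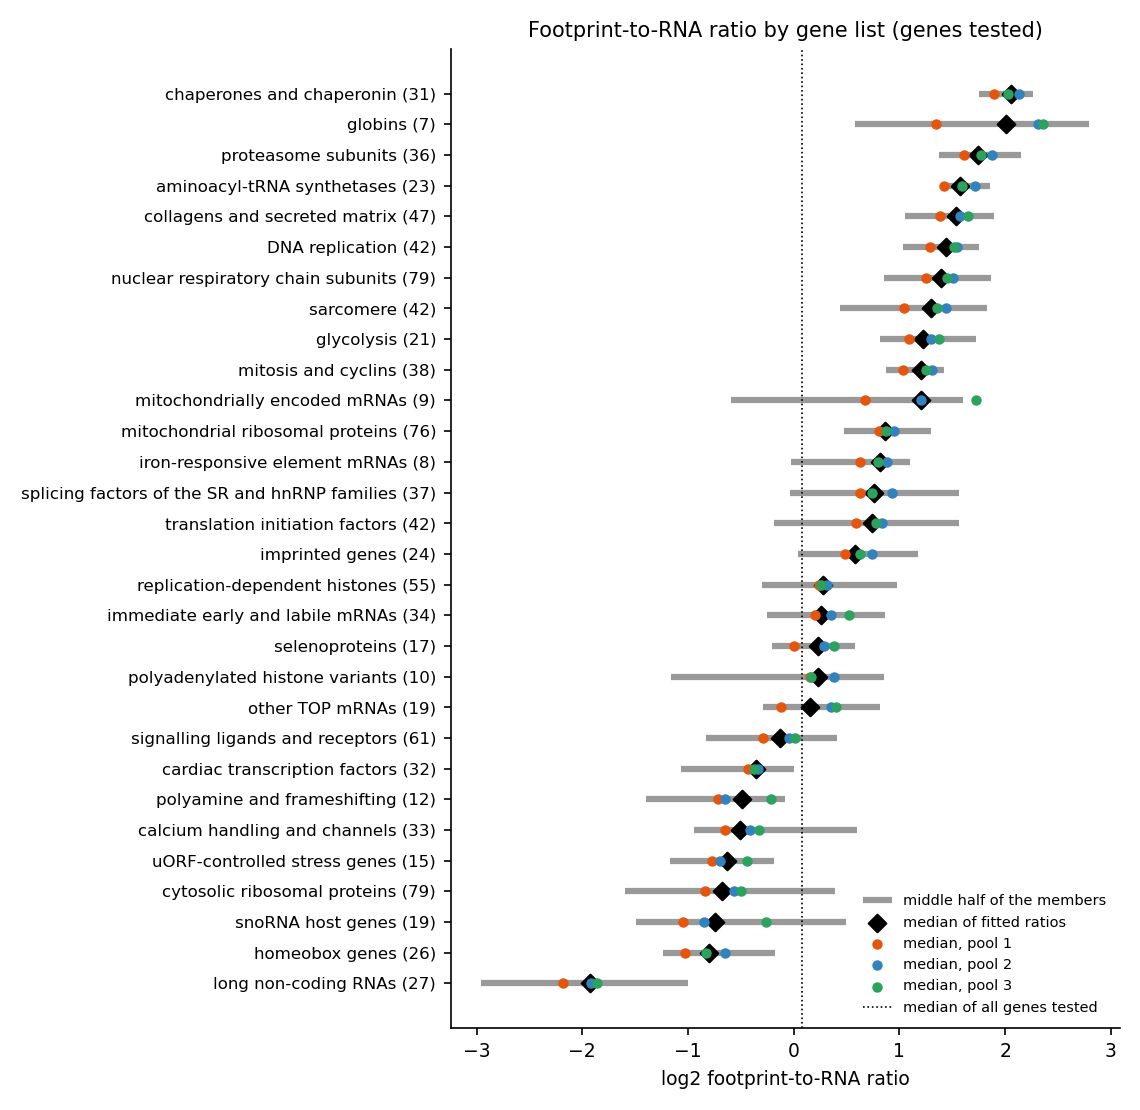
Median log2 footprint-to-RNA ratio of 30 gene lists in control hearts (diamonds), with grey bars for the middle range of the members from the 25th to the 75th percentile and dots for the medians in pools 1 (orange), 2 (blue) and 3 (green). The dotted line is the median of all 17587 genes, 0.08. Chaperones lie at 2.05 and long non-coding RNAs at −1.93, and the 3 pools lie close together within most lists.

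Genes for protein folding had the highest median ratio of the 30 lists. Of 31 chaperone genes 26 were higher and 2 lower, and their share of all reads was 2.85 ± 0.132% of footprints against 0.987 ± 0.0543% of RNA (SD, n = 3 pools). Hsp90b1, the HSP90 paralog of the endoplasmic reticulum (ER), gave 3100.2, 4492 and 4646 CPM in footprint pools 1 to 3, against 439.7, 505 and 559 CPM in RNA pools. Every footprint value lay far above every RNA value, and the log2 ratio was 3.01 (SE 0.12, adjusted p = 2.68e-135). Hspa5, which encodes the ER chaperone BiP, gave 2971, 4049.6 and 4331 CPM in footprints, against 478, 580 and 639 CPM in RNA (log2 ratio 2.73). Pdia3, an ER disulfide isomerase, had a log2 ratio of 2.92, and Cct8, a subunit of the cytosolic chaperonin that folds actin and tubulin, one of 2.71. The 2 members called lower were Ppia, a peptidyl-prolyl isomerase (−1.62), and the HSP70 cochaperone gene Dnaja1 (−1.24), and of the coding 30-mers of these genes 100% and 95.3% occur elsewhere in the genome. Among the 22 members with under 20% of such repeated 30-mers, 21 were higher and 0 lower.

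Machinery for protein turnover and translation showed the same direction with some exceptions. Of 36 subunits of the proteasome, the protease for ubiquitin-tagged proteins, 31 were higher and 0 lower (median 1.74). Psmb4, a subunit of its core ring, gave 404, 459 and 462 CPM in footprints, against 71.8, 70.0 and 72.9 CPM in RNA. The assays did not overlap, and the log2 ratio was 2.62 (SE 0.10, adjusted p = 5.32e-154). Psma3, another core subunit, had the lowest ratio of the list (−0.85, not called), with 92% of its coding 30-mers found elsewhere. Of 23 aminoacyl-tRNA synthetase genes, which charge tRNAs with their amino acids, 22 were higher. Rars1, the arginine enzyme, gave 289, 348 and 349.8 CPM in footprints, against 58.9, 59.7 and 66.9 CPM in RNA (log2 ratio 2.41). The exception, Eef1e1, is a scaffold of the synthetase complex and stood at 0.56. With coding-scaled RNA 11 of the 23 were higher and 0 lower, and Eef1e1 was among the higher ones at 1.67.

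Translation initiation factors lay on both sides of the typical gene. Of 42 genes 19 were higher and 5 lower, with a median of 0.74. The helicase gene Ddx3x, targeted elsewhere in the series and floxed here, gave 723, 877 and 795 CPM in footprints, against 241, 249 and 257 CPM in RNA, a log2 ratio of 1.68 (SE 0.10, adjusted p = 1.25e-64). Some subunits of eIF3, the factor that holds the initiating ribosomal subunit to the mRNA, were also higher, such as Eif3a (2.12) and Eif3c (2.31). Eif4ebp2, whose product binds eIF4E and blocks cap-dependent initiation, gave 26.6, 31.0 and 32.0 CPM in footprints, against 231, 246 and 249.7 CPM in RNA. All RNA values lay far above the footprint values, and the log2 ratio was −3.02 (adjusted p = 9.84e-179) with only 1.5% of its coding 30-mers found elsewhere. The other 4 lower members, Eif3j1, Eif4e, Eif1 and Eif2s3x, each had over 80% of their coding 30-mers found elsewhere. Mitochondrial ribosomal proteins had 34 higher and 4 lower of 76 (median 0.86).

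Contractile genes of the heart muscle mostly had ratios above the typical gene. Of 42 tested sarcomere genes 24 were higher and 1 lower (median 1.30), and their share of reads was 5.76 ± 0.409% of footprints against 2.92 ± 0.160% of RNA (SD, n = 3). Tnnc1, cardiac troponin C, the calcium sensor of the thin filament, gave 1470.3, 1587 and 1421 CPM in footprints, against 218, 213 and 216 CPM in RNA. These values differed little between pools of 1 assay, and the log2 ratio was 2.79 (SE 0.11, adjusted p = 5.19e-149). Both cardiac myosin heavy chains were higher. Myh6 gave 6637, 7401 and 7306 CPM in footprints, against 1479, 1477 and 1430 CPM in RNA (log2 ratio 2.28), and Myh7 gave 8403, 8659 and 7876 against 1909.6, 1610 and 1608 CPM (2.29). Actc1, cardiac alpha-actin, had a log2 ratio of 2.19, and Tnnt2, cardiac troponin T, one of 1.86.

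Not all sarcomere genes followed. Ttn, the giant spring protein titin, gave 5259, 8190 and 7070 CPM in footprints, against 5176, 4709 and 5201 CPM in RNA. The lowest footprint value, in pool 1, lay just above the highest RNA value, and the log2 ratio of 0.42 (adjusted p = 0.00130) stayed under the fold threshold and turned to −0.19 with library totals and to −0.75 with coding-scaled RNA. Neb, the gene of the long thin filament protein nebulin (0.08), was not called either. Myoz2, calsarcin-1, which tethers calcineurin to the Z-disc, was the only member called lower. It gave 9.59, 9.93 and 12.5 CPM in footprints, against 34.0, 28.9 and 25.9 CPM in RNA (log2 ratio −1.45, adjusted p = 7.44e-32), and its call was lost with coding-scaled RNA (−0.52).

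**Figure D3:**
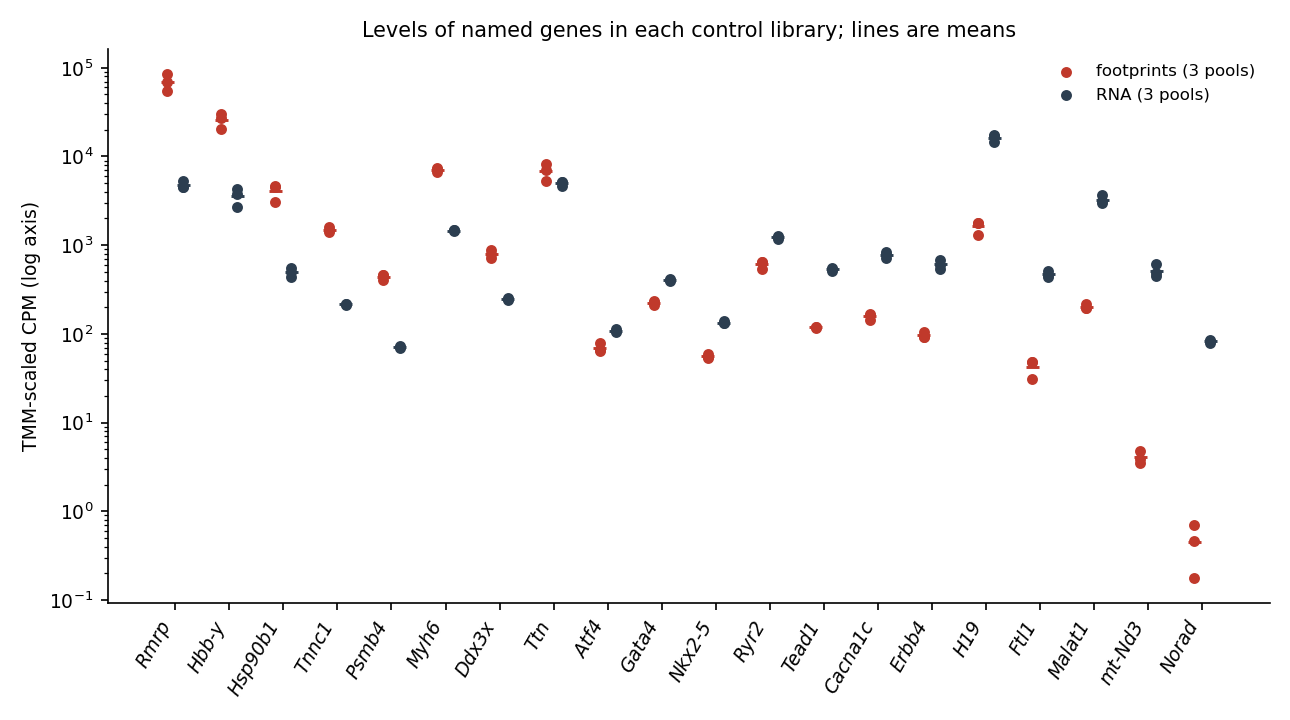
Level of 20 genes in each pool of control hearts, in CPM on a log axis, with footprint pools in red to the left of RNA pools in dark grey. For Hsp90b1, Tnnc1, Psmb4 and Myh6 every footprint value lies above every RNA value, for Ttn they nearly meet, and for Cacna1c, Erbb4, H19, Malat1 and Norad every footprint value lies below. Footprint and RNA values did not overlap for 65.3% of all tested genes.

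Most energy metabolism genes of the nucleus had high ratios. Of 79 nuclear subunits of the respiratory chain and ATP synthase 56 were higher and 7 lower (median 1.39). Atp5pf, a coupling subunit of the ATP synthase stalk, gave 328, 370.2 and 349.7 CPM in footprints, against 37.1, 38.0 and 38.4 CPM in RNA. The log2 ratio of 3.21 (SE 0.10, adjusted p = 1.26e-220) was the highest of the list. All 7 lower members, among them Atp5mg (−3.87), Atp5mc1 (−2.94) and the cytochrome c gene Cycs (−1.33), had over 80% of their coding 30-mers elsewhere in the genome, and among the 44 members with under 20% the counts were 40 higher and 0 lower. Atp5mg had footprint counts of 20, 7 and 16 and passed the count filter only through its RNA. Of 21 glycolysis genes 15 were higher and 3 lower (median 1.22), led by the aldolase gene Aldoc (2.01). The 3 lower ones, Pgam1 (−2.84), Pgk1 (−1.94) and Gapdh (−1.58), were again genes with over 80% of their coding 30-mers elsewhere.

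Messenger RNAs encoded by the mitochondrial genome spread widely. Of the 13, 9 had values and were tested, with 5 higher and 2 lower, and 8 of the 9 passed the count filter in both assays. The only one on the light strand, mt-Nd6, gave 2332, 2823 and 3032 CPM in footprints, against 869, 795 and 680.5 CPM in RNA (log2 ratio 1.80, and 0.63 without a call with coding-scaled RNA). The oxidase subunit gene mt-Co1 gave 8976, 9969 and 10820 CPM in footprints, against 16931, 14018 and 12683 CPM in RNA, a log2 ratio of −0.55 that was not called. In mt-Nd3 footprints were nearly absent, with 3.86, 4.79 and 3.52 CPM in footprints, against 608, 449 and 487 CPM in RNA (−7.02). The other lower gene, mt-Nd4l, had a log2 ratio of −5.59. It passed the count filter only through its RNA, so it had to be low. Of the coding 30-mers of mt-Nd3, 99.1% occur elsewhere in GRCm39. The median of the 9 genes ran from 0.67 in pool 1 to 1.21 in pool 2 and 1.72 in pool 3, a wider range over pools than in the nuclear list (1.26 in pool 1, 1.45 in pool 3 and the highest value in pool 2). With coding-scaled RNA 0 of the 9 were higher and 4 lower, most of these mRNAs being annotated without untranslated regions.

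Genes of dividing cells were mostly higher. Of 42 DNA replication genes 32 were higher and 0 lower (median 1.44). Rrm1, the large subunit of ribonucleotide reductase, which makes deoxynucleotides, gave 845, 1031 and 1041 CPM in footprints, against 154, 149 and 168 CPM in RNA (log2 ratio 2.62, adjusted p = 1.84e-143). Prim2, a primase subunit, was lowest at 0.01 (adjusted p = 0.929). Of 38 genes for mitosis and cyclins 26 were higher and 1 lower (median 1.21). Pttg1, securin, which guards sister chromatids, stood at 2.51 and the mitotic kinase gene Cdk1 at 1.96. Cdk6, a kinase of the G1 phase, was the only lower member (−1.83, adjusted p = 6.43e-76), and with coding-scaled RNA it turned to 0.57. The D cyclin genes Ccnd2 (−0.00) and Ccnd3 (−0.39) were not called. With coding-scaled RNA 16 of the 38 genes were higher and 0 lower.

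Histone genes, which package newly made DNA, were spread around the typical gene. Of 55 tested replication-dependent histone genes, whose mRNAs end in a stem-loop in place of a poly(A) tail, 14 were higher and 6 lower (median 0.27), and they took 0.949 ± 0.00876% of footprints against 1.04 ± 0.0829% of RNA reads (SD, n = 3). H2bc21 had the highest ratio, with 17.7, 25.01 and 29.7 CPM in footprints, against 4.38, 4.05 and 3.71 CPM in RNA (2.57), and H3c15 the lowest (−3.50). H3c15 had footprint counts of 2, 0 and 0 and passed the count filter only through its RNA, so it had to be low. With coding-scaled RNA 10 of the 55 were higher and 15 lower, with 4 of the higher calls kept, and the median turned to −0.088. A median of 84.3% of the coding 30-mers of these genes occur elsewhere in the genome. Of 10 tested histone variant genes with polyadenylated mRNAs, 1 was higher and 4 lower (median 0.23), and with coding-scaled RNA 2 were higher and 2 lower. H3f3a, one of the genes for histone H3.3, gave 7.14, 4.79 and 4.93 CPM in footprints, against 76.1, 73.5 and 79.8 CPM in RNA (−3.75), with 99.5% of its coding 30-mers found elsewhere.

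Secreted proteins of the extracellular matrix, which forms the cardiac jelly and valve cushions at this stage, mostly had high ratios as well. Of 47 collagen and matrix genes 36 were higher and 1 lower (median 1.54), and their share of reads was 3.82 ± 0.327% of footprints against 1.74 ± 0.188% of RNA. Fn1, fibronectin, gave 9746, 12044 and 12906 CPM in footprints, against 1943, 2173 and 2350.4 CPM in RNA (log2 ratio 2.42, SE 0.13). Lum, a collagen-binding proteoglycan, had the highest ratio (2.83). The lower member was the transmembrane collagen gene Col23a1 (−2.03). The list depended on the counted region, with 17 higher and 2 lower and a median of 0.68 with coding-scaled RNA.

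The listed long non-coding RNAs lay at the other end, but the list does not stand for the class. The 817 annotated long non-coding genes that passed the count filter in both assays had a median of 0.10, with 22.9% lower. Coding genes that passed in both had a median of 0.20, with 13.2% lower. None of 27 tested members of the list was higher and 20 were lower (median −1.93), 23 of the 27 having passed the count filter in both assays. The share of reads of the list was 0.196 ± 0.0105% of footprints against 2.70 ± 0.248% of RNA. H19, an imprinted RNA that took more RNA reads than any other gene, gave 1313, 1799 and 1779.7 CPM in footprints, against 17566, 16836 and 14452 CPM in RNA. No footprint value came near an RNA value, and the log2 ratio was −3.33 (SE 0.14, adjusted p = 3.68e-118). Nuclear Malat1 gave 194, 217 and 195 CPM in footprints, against 3715, 3112 and 2962 CPM in RNA (−4.01). Xist, which coats the inactive X chromosome, had a log2 ratio of −3.33. Norad, a cytoplasmic RNA that binds Pumilio proteins, gave 0.468, 0.177 and 0.704 CPM in footprints, against 79.5, 85.6 and 82.4 CPM in RNA, and its log2 ratio of −7.38 was the lowest of the list. Norad had footprint counts of 4, 1 and 6 and passed the count filter only through its RNA, so it had to be low. Miat was the highest at 0.65 (adjusted p = 0.210, not called), and Tug1, which GENCODE vM39 annotates as coding, stood at 0.19.

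Structural and nucleolar RNAs did not behave as 1 group. Rmrp, the RNA of the RNase MRP enzyme, which is not translated, took 5.03 to 6.31% of all footprints. It gave 55149, 68495 and 84141 CPM in footprints, against 5284, 4497 and 4558 CPM in RNA (log2 ratio 3.84, adjusted p = 1.46e-106), so an RNA that is not translated had one of the highest ratios in these libraries. Of its exonic bases 96.4% are shared with another annotated gene on either strand. Footprint libraries can hold fragments that no ribosome protected, and their part in the footprint counts of any gene was not tested. Terc, the telomerase RNA, with 100% of its exonic bases shared, had a log2 ratio of −1.54. Of 19 host genes of small nucleolar RNAs 1 was higher and 8 lower (median −0.74), and 17 of the 19 passed the count filter in both assays. The higher one, Gas5, gave 450.4, 685 and 974 CPM in footprints, against 199, 161 and 187 CPM in RNA (1.89). Snhg1 had a larger value (2.44) and missed the threshold (adjusted p = 0.0557), but passed it under 7 of the alternatives. Snhg4, the lowest host gene (−4.65), had footprint counts of 0, 1 and 1. It passed the count filter only through its RNA, so it had to be low. With the filter in both assays the median of the host genes lay −0.37 from that of all genes, against −0.82 in the main fit.

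Among transcription factors that build the heart, some had low ratios and most were not called. Of 32 tested cardiac transcription factor genes 0 were higher and 9 lower (median −0.36), and the list took 0.232 ± 0.0133% of footprints against 0.612 ± 0.0123% of RNA reads (SD, n = 3). Tead1, which binds DNA for the growth regulator YAP, gave 116, 120.3 and 119 CPM in footprints, against 552, 512 and 537 CPM in RNA. All RNA values lay far above the footprint values, and the log2 ratio was −2.17 (SE 0.10, adjusted p = 4.83e-104), which moved to −0.42 and lost its call with coding-scaled RNA. The cofactor of GATA factors Zfpm2 (FOG2) gave 60.6, 65.5 and 63.3 CPM in footprints, against 245, 214 and 255 CPM in RNA (−1.92). Nkx2-5, a homeobox factor of early heart progenitors, gave 53.9, 58.9 and 54.9 CPM in footprints, against 132, 139 and 132 CPM in RNA (−1.26, adjusted p = 4.23e-40). With coding-scaled RNA the list had 4 higher and 7 lower and a median of −0.19, against 0.15 for all coding genes, and 6 of the 9 lower calls were kept.

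Other factors lay closer to the typical gene. Gata4, a zinc finger factor of cardiac genes, gave 213, 232 and 231 CPM in footprints, against 411, 396 and 409 CPM in RNA. The assays did not overlap, as for 65.3% of all tested genes, and the log2 ratio of −0.85 (adjusted p = 1.18e-18) lay inside the fold threshold. The ventricular factor gene Hand1 (0.64) and the progenitor factor gene Isl1 (0.55) had the highest ratios of the list and were not called. Of 26 tested homeobox genes 0 were higher and 11 lower (median −0.80), and 21 of the 26 passed the count filter in both assays. Tgif2 had the lowest ratio (−2.88), with 89.6% of its coding 30-mers found elsewhere, and the related Tgif1 the highest (0.94, not called). All 32 cardiac factors had under 20% of their coding 30-mers elsewhere in the genome.

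Ion channels and calcium handling genes spread to both sides. Of 33 genes 6 were higher (18.2%) and 7 lower (21.2%), close to the shares of all genes, with a median of −0.50. Among coding genes alone 19.2% were higher and 13.9% lower, with a median of 0.15. Cacna1c, the pore of the L-type calcium channel that triggers contraction, gave 145, 162 and 169 CPM in footprints, against 794, 714 and 838 CPM in RNA. Every RNA value was far above every footprint value, and the log2 ratio was −2.30 (SE 0.10, adjusted p = 1.27e-112). Ryr2, the channel through which stored calcium leaves the sarcoplasmic reticulum, gave 534, 640.2 and 647 CPM in footprints, against 1276, 1165 and 1237 CPM in RNA (−1.02). The Ryr2 call was lost without pool 1 (−0.91). Atp2a2, the pump SERCA2 that refills this store, gave 2853, 3589 and 3739 CPM in footprints, against 1212, 1310.2 and 1358 CPM in RNA (1.38). The gap junction gene Gja1 (1.51) was higher as well.

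Signalling genes spread widely, with a median below that of coding genes. Of 61 ligand and receptor genes 8 were higher (13.1%) and 11 lower (18%), with a median of −0.13. Erbb4, a neuregulin receptor needed for trabeculae, gave 93.2, 91.9 and 104 CPM in footprints, against 688, 538 and 595 CPM in RNA. It was the lowest of the list, with a log2 ratio of −2.65 (SE 0.10, adjusted p = 2.76e-145). Its ligand gene Nrg1 was lower too (−1.13). Igf2r, a receptor that clears the growth factor IGF2, gave 8431, 11322 and 13058 CPM in footprints, against 2657, 3213 and 3409.5 CPM in RNA (1.81, and 0.90 without a call with coding-scaled RNA), and the VEGF receptor gene Kdr stood at 1.65. The list spans both ends of the range, and its shares lie near those of all genes. Among coding genes alone 19.2% were higher and 13.9% lower, with a median of 0.15.

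Stress genes with known upstream open reading frames had a median below that of all genes. Of 15 tested genes 1 was higher and 5 lower (median −0.63), and 13 of the 15 passed the count filter in both assays. Atf4, a transcription factor of the integrated stress response, is the textbook case, since ribosomes that start at its upstream AUGs mostly miss the main one in unstressed cells. Its AUGs are printed here in transcript order from GRCm39, 10 bases before each codon and 7 after it on the plus strand, with the codon in capitals.
Atf4 upstream AUG 1 (chr15:80139494-80139513): cttttctctcATGgggcctt
Atf4 upstream AUG 2 (chr15:80139773-80139792): tgcggccaccATGgcgtatt
Atf4 upstream AUG 3 (chr15:80139872-80140412, across an intron): ggcctaagccATGgcgctct
Atf4 main AUG (chr15:80140490-80140509): gccccacaacATGaccgaga
The reading frame of upstream AUG 1 has 36 codons and that of AUG 2 has 3, both ending before the main AUG. The frame of AUG 3 has 59 codons and runs past the main AUG, which opens 349 codons. Atf4 gave 66.1, 64.0 and 79.6 CPM in footprints, against 113, 104 and 108 CPM in RNA. Every RNA value was above every footprint value, and the log2 ratio of −0.63 (SE 0.09, adjusted p = 1.77e-11) lay inside the fold threshold, and passed it with library totals (−1.24) and with coding-scaled RNA (−1.08). Cebpa (−2.04), Atf5 (−1.35) and Ddit3 (−1.29), 3 more stress or differentiation factors, were lower. Cebpa had footprint counts of 6, 8 and 4 in the 3 pools and passed the filter only through its RNA, so it had to be low. Eprs1, a tRNA synthetase gene whose upstream frames are read through in stress, was the higher one (1.65, and 0.95 without a call with coding-scaled RNA). With coding-scaled RNA 0 of the 15 genes were higher and 7 lower.

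Ribosomal protein genes had a low median ratio, and most of their coding sequence is repeated elsewhere in the genome. Of 79 cytosolic ribosomal protein genes 7 were higher and 29 lower, with a median of −0.68. Across the list the ratio and the repeated percentage were only weakly related (Spearman's rho −0.186 over 79 genes, as a description). A median of 97% of their coding 30-mers occur elsewhere in GRCm39, where processed pseudogenes copy spliced mRNAs, and a footprint is about that short. The first 30 coding bases of 6 genes and of the proteasome gene Psmb4 are shown to make this visible, in capitals the start codon, 5′ to 3′ on the strand of the gene, with the number of exact copies of the unbroken 30 bases in GRCm39.
Psmb4 (chr3:94794190-94794219, minus strand, 1 copy): ATGgaagcgttttgggagtcacgggctggc
Rpl8 (chr15:76788513-76788542, plus strand, 1 copy): ATGggccgtgtgatccgagggcagaggaaa
Rpl38 (chr11:114559638-114559758, plus strand, across an intron, 2 copies): ATGcctcggaaaattgaggagatcaaggac
Ube2n (chr10:95351070-95351099, plus strand, 3 copies): ATGgccgggctgccccgcaggatcatcaag
Rpl39 (chrX:36347715-36348780, minus strand, across an intron, 4 copies): ATGtcttctcacaagactttccgaatcaag
Ftl1 (chr7:45109026-45109055, minus strand, 8 copies): ATGacctctcagattcgtcagaattattcc
Rpl23a (chr11:78073808-78074369, minus strand, across an intron, 11 copies): ATGgcgccgaaagcgaagaaggaagctcct
Where the window crosses an intron, the copies are intronless ones elsewhere. The single-copy Rpl8 gave 863, 978 and 969 CPM in footprints, against 639, 628 and 620.1 CPM in RNA (0.57, not called). Rpl38 gave 7.25, 6.03 and 7.86 CPM in footprints, against 76.2, 68.7 and 76.8 CPM in RNA (−3.38, adjusted p = 1.80e-166), and Rpl39 had a log2 ratio of −4.12. Ube2n, a ubiquitin-conjugating enzyme gene outside the ribosome, gave 3.51, 2.84 and 2.58 CPM in footprints, against 51.8, 54.1 and 56.9 CPM in RNA (−4.18). Rpl23a, with the most copies of the 7, went the other way, with 58.7, 113 and 134 CPM in footprints, against 13.8, 11.5 and 12.3 CPM in RNA (2.98, adjusted p = 0.0119).

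The 4 ribosomal protein genes with under 50% of repeated 30-mers (among them Rpl8, Rps3 and Rpl4) had a median of 0.58 with 0 called, the 20 with 50 to 90% a median of −0.64, and the 55 with at least 90% a median of −0.77. Their median RNA levels differed too, at 695, 115.5 and 40.6 CPM in the same order, so repeated sequence and RNA level moved together in this list. Over coding genes the ratio did not fall steadily with repeated sequence (Spearman's rho across 14861 genes 0.034). The median log2 ratio was 0.01 for 3473 genes with at most 1% of 30-mers elsewhere, 0.24 for 9027 genes above 1 and up to 5%, 0.31 for 865 up to 20%, 0.10 for 671 up to 50%, −0.42 for 400 up to 80% and −1.36 for 425 above 80%. Of these last 425 genes 56.7% were called lower and 8.47% higher. The sources used here do not state how reads with several matches were counted, and the part of that choice in these low ratios was not tested. The 2 ribosomal protein genes with under 20% of repeated 30-mers had a median of 0.58. Tpt1, a growth-regulated mRNA with a terminal oligopyrimidine start, stood at −3.58 with 100% of its 30-mers elsewhere, the poly(A)-binding protein gene Pabpc1 at −1.04, the elongation factor genes Eef1a1 at −0.43 and Eef2 at 0.39. The Pabpc1 call was lost without pool 1 (−0.88).

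**Figure D4:**
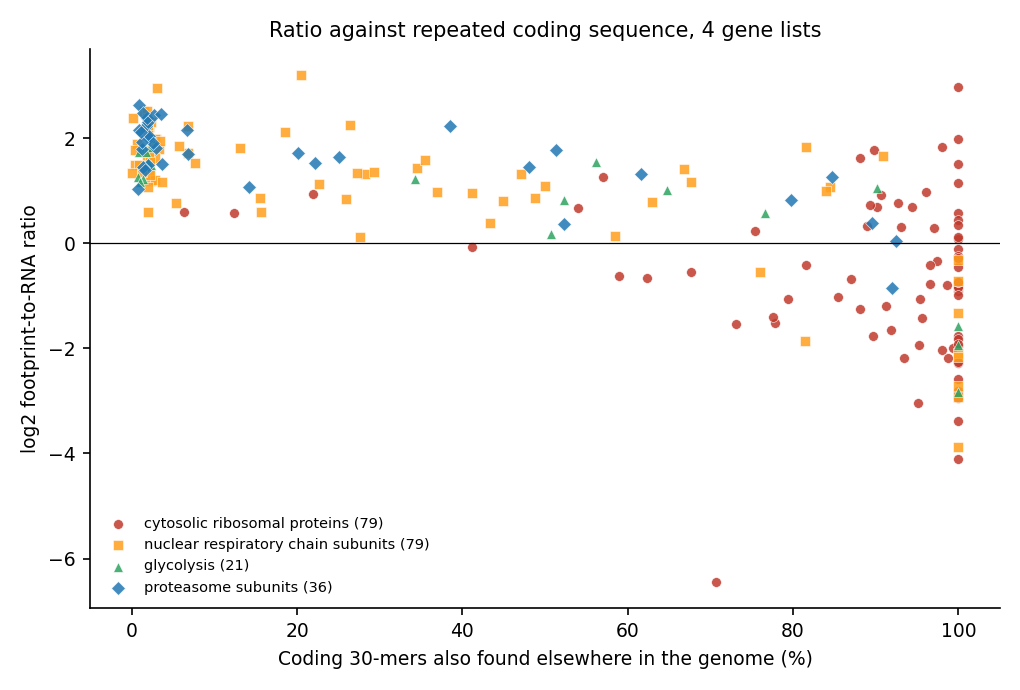
Log2 footprint-to-RNA ratio (vertical) against the percentage of a gene's coding 30-mers that occur elsewhere in GRCm39 (horizontal) in control hearts, for cytosolic ribosomal proteins, respiratory chain subunits, glycolysis and proteasome genes, 1 point per gene from 3 pools per assay. Genes with few repeated 30-mers lie mostly above 0, and those near 100% spread from 2.98 (Rpl23a) to −4.12 (Rpl39). The lowest point is Rpl13a at −6.46, a gene that passed the count filter only through its RNA.

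Iron-regulated mRNAs were read against their iron-responsive element (IRE), a hairpin with a CAGTG loop that in the 5′ UTR blocks initiation when iron regulatory proteins bind it, as known in mammals. Tested genes with such a loop in the 5′ UTR, 5 of them, are shown from GRCm39 as 30 bases on the strand of the gene, CAGTG in capitals.
Ftl1 (chr7:45109205-45109234, minus strand): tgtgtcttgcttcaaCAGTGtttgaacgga
Fth1 (chr19:9960093-9960122, plus strand): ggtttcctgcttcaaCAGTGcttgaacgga
Alas2 (chrX:149330451-149330480, plus strand): tctttggttcgtcctCAGTGcagggcaaca
Epas1 (chr17:87061193-87061222, plus strand): ccgtacaatcctcggCAGTGtcctgagact
Slc40a1 (chr1:45964627-45964656, minus strand): ttccaacttcagctaCAGTGttagctaagt
The letters CNNNNNCAGTGN alone occur in the 5′ UTR of 2122 of 20709 coding transcripts (10.2%), read on the transcript strand, so a match is not a working element. Ferritin light chain, Ftl1, which stores iron, gave 30.7, 47.9 and 48.0 CPM in footprints, against 516, 463 and 439.7 CPM in RNA (−3.51, adjusted p = 2.24e-211), and 88.5% of its coding 30-mers occur elsewhere. Ferritin heavy chain, Fth1, gave 543, 636 and 765 CPM in footprints, against 1074, 955 and 976 CPM in RNA (−0.64, not called). The erythroid heme synthesis gene Alas2 gave 172, 219 and 239.6 CPM in footprints, against 127, 119 and 160.5 CPM in RNA (0.63, not called), and with coding-scaled RNA its log2 ratio was −0.33.

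Further iron genes were not low. The iron exporter gene Slc40a1 stood at 1.02, and the hypoxia factor gene Epas1 at 1.00 without passing the threshold. Tfrc, the transferrin receptor, whose elements lie in the 3′ UTR and act on RNA stability, gave 446, 572 and 676 CPM in footprints, against 208, 199 and 245 CPM in RNA (1.36). The 8 tested genes of the list held 3 higher and 1 lower (median 0.81), and 1 higher and 2 lower with coding-scaled RNA, where Fth1 joined Ftl1 at −1.05.

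Transcript structure varied with the ratio across the 14861 coding genes, taking 1 annotated coding transcript per gene. By quintiles of 5′ UTR length, with median lengths of 67, 147, 237, 369 and 651 bases, the median log2 ratios were 0.37, 0.34, 0.19, −0.01 and −0.18. The share called higher was 25.5% in the quintile with the shortest 5′ UTRs and 11% in that with the longest. By quintiles of 3′ UTR length, with median lengths of 202, 682, 1345, 2296 and 4112 bases, the median ratios were 0.50, 0.36, 0.14, 0.02 and −0.27. As counted, short untranslated regions on either side went with more footprints per RNA, with Spearman's rho across genes of −0.207 and −0.271. Genes with no upstream AUG in the 5′ UTR (5455) had a median of 0.42, those with 1 (3415) 0.16, those with 2 or 3 (3124) −0.06, and those with 8 or more (714) −0.14. Within each quintile of 5′ UTR length, genes with an upstream AUG had a lower median than genes without one, by −0.12, −0.30, −0.31, −0.37 and −0.22 from short to long. The gene lists differed in this feature too, since the median 5′ UTR of the cardiac transcription factors was 429 bases, that of proteasome subunits 109 and that of aminoacyl-tRNA synthetases 126.

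**Figure D5:**
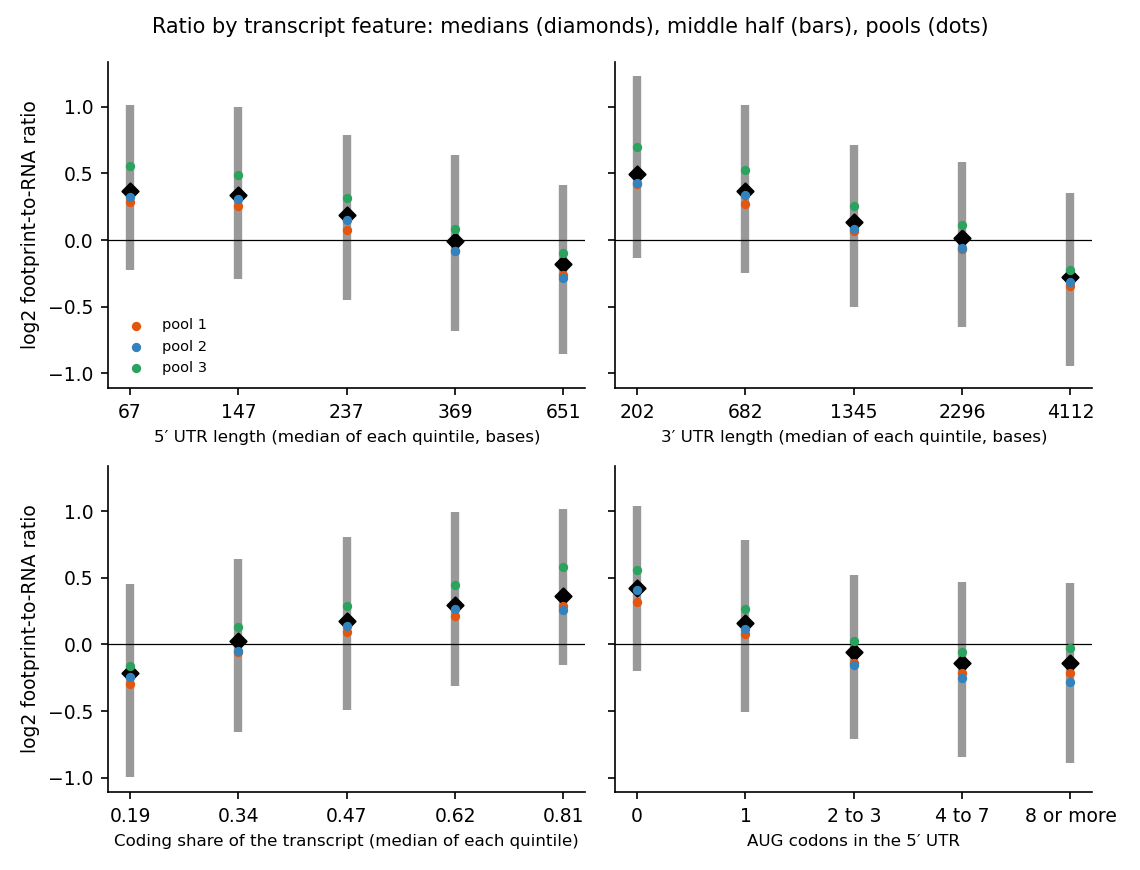
Median log2 footprint-to-RNA ratio of tested coding genes in control hearts by quintiles of 5′ UTR length, 3′ UTR length and coding share of the transcript, and by the number of AUGs in the 5′ UTR, with diamonds for the medians, grey bars from the 25th to the 75th percentile and dots for the medians of the 3 pools. The medians run from 0.37 to −0.18 over quintiles of 5′ UTR length and from 0.42 without an upstream AUG to −0.14 with 8 or more.

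Most of these trends depended on the counted region. With coding-scaled RNA the longest minus the shortest quintile of 5′ UTRs moved to −0.08, against −0.55 as counted. Over the 14584 genes with an annotated 5′ UTR it was −0.19, against −0.60 as counted. The same difference for 3′ UTR length turned to 0.83, against −0.77 as counted, and that for the coding share of the transcript to −1.58, against 0.58. Over the same 14584 genes, upstream AUGs kept their direction within each quintile of 5′ UTR length, with differences of −0.05, −0.49, −0.44, −0.52 and −0.30 from short to long. The median with 8 or more upstream AUGs, taken over all lengths, was 0.12, against 0.39 with none. The GC content of the 5′ UTR also kept its direction. Its quintiles, with median GC of 51.2, 58.9, 64.2, 69.5 and 76.4%, had median ratios of 0.25, 0.29, 0.28, 0.11 and −0.20 as counted, and the highest minus the lowest quintile was −0.45 as counted and −0.36 with coding-scaled RNA.

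The genes at the extremes were not those of the lists alone. Among coding genes with a mean of at least 200 counts, Slc22a27, of a family of organic anion transporters, had the highest ratio, with 151, 184 and 206 CPM in footprints, against 6.87, 5.92 and 4.86 CPM in RNA (4.95) and 49.1% of its coding 30-mers found elsewhere. The histone variant gene H2aj gave 288, 342 and 399.6 CPM in footprints, against 15.6, 16.1 and 18.4 CPM in RNA (4.36) and 37.4% found elsewhere. Ik, a splicing factor gene (3.44), Hrc, a calcium-binding protein of the sarcoplasmic reticulum (3.16), the blood steroid carrier gene Serpina6 (3.08) and the citrate synthase relative Csl (3.05) followed with Atp5pf and Hsp90b1. At the low end, Zfp949, a zinc finger gene, gave 8.19, 10.1 and 6.22 CPM in footprints, against 685, 619 and 378 CPM in RNA (−6.10), with 0.28% of its coding 30-mers found elsewhere. Rpl13a (−6.46), Ctnnd1, the p120 catenin of cell junctions (−5.04), and Pik3r3, a regulatory subunit of PI3 kinase (−4.95), were also among the lowest. Footprint counts in pools 1 to 3 were 2, 4 and 4 for Rpl13a, 4, 5 and 8 for Ctnnd1, and 2, 5 and 7 for Pik3r3. Rpl13a, Ctnnd1 and Pik3r3 passed the count filter only through their RNA, so they had to be low. Of the exonic bases of Rpl13a, Ctnnd1 and Pik3r3, 59.3%, 42.4% and 24.2% are shared with another annotated gene. Of the coding 30-mers of Rpl13a, 70.7% occur elsewhere. Among non-coding genes Rab26os (4.93) and Rmrp were highest and Norad and Oip5os1 (−5.86) lowest.

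Markers of the cell types that a whole heart can hold bear on these lists. The 8 cardiomyocyte markers summed to 44770, 49920 and 47890 CPM in footprint pools 1 to 3, against 15020, 13350 and 13710 CPM in RNA pools. Red cell genes followed the same direction. Hbb-y, an embryonic beta-like globin of primitive red cells, gave 20151, 26806 and 30178 CPM in footprints, against 4346, 2666 and 3734 CPM in RNA (2.85, adjusted p = 6.35e-80). Of 7 globin genes 5 were higher and 1 lower (median 2.01), and they took 5.01 ± 0.493% of footprints against 1.11 ± 0.261% of RNA reads. The lower one, Hbb-bs (−3.17), had footprint counts of only 11, 10 and 3 in pools 1 to 3. Of its coding sequence 80.2% is repeated elsewhere in the genome. Only 6 of the 7 globin genes passed the count filter in both assays. Of 7 endocardial markers 4 were higher, led by the endothelial cadherin gene Cdh5 (2.13). In bulk pools, fewer cells of a type and less RNA per cell cannot be told apart.

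Other markers differed between pools. The 5 markers of liver and yolk sac summed to 244, 1539 and 1604 CPM in footprint pools 1 to 3, against 51.6, 251 and 293 CPM in RNA pools, so pool 1 was the lowest in both assays. Afp, alpha-fetoprotein, gave 201, 1302 and 1348 CPM in footprints, against 40.8, 213 and 252 CPM in RNA (2.45, SE 0.10). The median log2 ratio of these 5 markers was 1.56 in pool 1, 2.61 in pool 2 and 2.42 in pool 3. Serpina6 levels were lowest in pool 1 as well. The 5 erythroid markers summed to 49300, 64500 and 73010 CPM in footprints, against 11000, 6731 and 9093 CPM in RNA. The list medians of liver and yolk sac, erythroid, globin and mitochondrially encoded genes were lowest in pool 1, as were those of most lists, and the part of marker levels in these differences was not tested. The 3 macrophage markers tested summed to 17.1, 21.6 and 26 CPM in footprints, against 13.4, 13.7 and 9.68 CPM in RNA.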

How the data were processed

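Footprint and RNA libraries of 3 control pools were analysed. Per the labels, each pool gave both libraries, made with a service provider's ribosome profiling method with ribosomal RNA depletion. The values used are raw read counts per gene, deposited as such and made by the authors with the provider's pipeline against mm39, per the series' design text. Not given in the sources used here: aligner, annotation, strand rule, counted region and handling of reads with several matches. The authors' RPM columns (scaled to reads in genes) and the authors' ratio of footprint to RNA coverage, both in the deposited table, were not tested. A pool's cells were blank unless its RNA or footprint count was at least 11.

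Gene IDs were matched to GENCODE vM39 on GRCm39 (mm39): 21594 of 21783 matched. Counts were fitted with edgeR 4.0.16 (R 4.3.3, quasi-likelihood F-test, robust) with assay and pool as terms, TMM scaling over the 6 libraries, and filterByExpr (minimum count 10, minimum total 15). This left 17587 genes, of which 14054 passed in both assays, 3220 in RNA alone, 76 in footprints alone and 237 in neither alone. P-values were adjusted by Benjamini-Hochberg over all genes tested. The fit shares its estimate of spread across genes, so a p-value does not measure the spread of that gene over the 3 pools alone. For the embryonic globin gene Hbb-bh1 the SD of the log2 ratio over pools was 0.651, against a fitted SE of 0.142. Very small p-values are therefore to be read with the pool values. The median half-width of the 95% interval of a log2 ratio was 0.251. The fit was tested on simulated data. The pool was a block because both libraries of a pool come from the same hearts. Deviations of same-numbered libraries from their assay means correlated by 0.61, 0.0291 and 0.482 in pools 1, 2 and 3 over 11105 genes. Footprint pool 2 correlated more with RNA pool 3 (0.337) than with its own RNA pool, so the pairing of pool 2 did not show in these values.

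Members and gene lists were chosen with earlier results of these data known, so lists are described by counts and medians without tests. Genes named by rule were the 8 highest and 8 lowest coding and the 5 highest and 5 lowest non-coding genes called with a mean of at least 200 counts and 1 sign in all pools, the highest and lowest member of each list, and a landmark list. Symbols of predicted genes and pseudogenes were left out. Other list members named as examples were chosen after their values were seen. Sequence features came from 1 coding transcript per gene, and a coding 30-mer counted as repeated where GRCm39 holds it elsewhere. Alternatives were upper quartile scaling, library totals, DESeq2 1.42.0, no filter, a filter in both assays, no replicate block, leaving out each pool, coding genes only and coding-scaled RNA. The plan wrote the coding-scaled formula with the opposite sign to its words, and the sign that matches the words was used. Restricting to coding genes with under 20% repeated 30-mers, or to genes with under 20% of exonic bases shared with another gene, was chosen after seeing the data. Results for some genes are not reported here.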

Additional observations from a re-analysis of the deposited data

How the results depend on the processing

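The counts of 2952 higher and 2965 lower genes stayed within 1.5 times under upper quartile scaling (2584 and 3257), DESeq2 (2721 and 2899), no filter (3010 and 3016), a filter in both assays (2382 and 2308) and under 20% exonic overlap (2542 and 2437). Leaving out 1 pool gave 2769 to 3152 higher and 2802 to 2962 lower. Without the replicate block, which pairs the libraries of a pool, 2903 were higher and 2906 lower. Library totals gave 1117 and 5660, and coding genes with under 20% repeated 30-mers gave 2193 and 1920, a set with fewer genes tested. Coding-scaled RNA raised the higher share of calls to 60.4%, from 49.9%.

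Of 118 genes named by rule, 74 stayed on their side of the threshold under every alternative and 16 changed sign under some. With library totals these were Eef1e1 (−0.049), Prim2 (−0.60), Ttn (−0.19), Tbx18 (−0.61), Eef2 (−0.22), Rcor2 (−0.38), Ppp1r3c (−0.013) and Irx1 (−0.34). With coding-scaled RNA they were Fosl2 (0.25), Psma3 (0.20), Cdk6 (0.57), Prim2 (−0.77), Selenot (1.07), Ttn (−0.75), Prrx1 (0.96), Alas2 (−0.33), Elavl3 (0.74), Eef2 (−0.52), Rcor2 (−0.069) and Irx1 (−0.18). Prim2 and Tbx18, both near 0, also turned with upper quartile scaling (−0.087 and −0.093), the filter in both assays (−0.13 and −0.13), coding genes only (−0.10 and −0.11), under 20% repeated 30-mers (−0.13 and −0.14) and DESeq2 (−0.030 and −0.037), and Prim2 under 20% exonic overlap (−0.0032). Leaving out 1 pool gave −0.058 to 0.047 for Prim2, −0.031 to 0.040 for Tbx18 and −0.0026 to 0.92 for Miat. The cause was not tested. Depth limits low genes most, and in pool 1 a blank can hide up to 10 counts per assay.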

Other observations

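Further gene groups are given here beside all tested genes, of which 16.8% were higher and 16.9% lower (median 0.08). Among coding genes 19.2% were higher and 13.9% lower (median 0.15). Not all of these groups stood apart from those shares. Zinc finger genes with symbols starting in Zfp had 8 higher and 87 lower of 359 tested (median log2 ratio −0.50), and the Zbtb family of zinc finger repressors had 2 higher and 13 lower of 39 (−0.58). The DEAD-box helicase genes starting in Ddx had 19 higher and 1 lower of 36 (1.03), and the Polr genes of RNA polymerase subunits had 12 higher and 2 lower of 32 (0.81). Solute carriers starting in Slc spread evenly, with 36 higher and 31 lower of 317, and their median (0.17) lay near that of coding genes. Among SR and hnRNP splicing factors 16 of 37 were higher and 4 lower (0.76), and with RNA scaled to the coding share 16 were higher and 0 lower. Among the 24 members with under 20% repeated coding 30-mers 13 were higher and 0 lower. Hnrnpul2 had the highest ratio (2.94), and the lowest was Hnrnpf (−1.80), with 97.8% of its coding 30-mers found elsewhere in GRCm39 and a value of −0.84 without a call in that scaling.

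Of 24 imprinted genes 8 were higher (33.3%) and 4 lower (16.7%, near the share of all genes), with a median of 0.58. The proteoglycan gene Dcn (2.57) and the Notch ligand relative Dlk1 (2.18) were at the top and H19 (−3.33) at the bottom. Of 17 selenoprotein genes, whose translation reads a UGA codon as selenocysteine, 2 were higher (11.8%) and 0 lower (median 0.23), and Selenos stood at 1.45 and Selenot at −0.56. Of 12 genes of polyamine synthesis and ribosomal frameshifting 1 was higher and 5 lower (−0.49). Sms, spermine synthase, stood at −3.25 with 100% of its coding 30-mers elsewhere, Odc1, ornithine decarboxylase, at −1.09 and Oaz1, its antizyme, at −0.64 without a call. Among 34 immediate early and labile mRNAs 7 were higher (20.6%, near the share of coding genes) and 2 lower (5.88%), with a median of 0.26. Id1 stood at 1.56, Myc at 1.43 and Fosl2 at −1.40. Of 12 mRNAs reported as sensitive to DDX3X, 3 were higher and 4 lower in these control hearts (−0.15), with Ccne1 the highest (1.38). With RNA scaled to the coding share 2 were higher and 4 lower (−0.59), none of the 3 higher calls was kept, and Ccne1 stood at 0.96 without a call.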
